A study of Mus musculus with 9 samples.

Results

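The interleukin-1 (IL-1) and interleukin-6 (IL-6) families were followed through 10 genes chosen by name, of 18272 genes in the deposited table. They are the IL-1 ligands *Il1a* and *Il1b*, their antagonist *Il1rn*, the receptor *Il1r1*, the IL-6 family ligands *Il6*, *Osm* and *Lif*, the receptor chains *Il6ra* and *Il6st*, and *Saa3*, an acute-phase protein made in tissues. The rule that chose them uses names and roles and no threshold on a measured value. Transcripts were counted by RNA-seq in 1 tibia of each of 9 female C57BL/6J mice, bought at 10 to 11 weeks of age and kept for 1 week before injection. The 3 NGT mice (normal glucose tolerance) were injected with vehicle and given saline. The 3 T1D mice received a single injection of streptozotocin (STZ), which destroys pancreatic beta cells and so insulin secretion, and 2 weeks later, once hyperglycemic, were assigned to saline. The 3 Lira mice received the same STZ and were assigned to liraglutide, a GLP-1 receptor agonist used against diabetes, at 0.6 mg/kg/day. Treatment lasted 8 weeks, while the label of Lira mouse 3 gives 9 weeks. No mouse carried an engineered allele, and T1D and Lira mice shared the STZ injection.

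IL-1α and IL-1β bind the same receptor, IL-1R1, which activates NF-κB, while the antagonist encoded by *Il1rn* occupies that receptor without signaling. IL-6, oncostatin M and leukemia inhibitory factor bind receptor chains of different kinds and share the signal-transducing chain gp130, encoded by *Il6st*, which activates STAT3. In bone, cytokines of both families are known to be made by marrow and stromal cells and to promote the formation of osteoclasts, the bone-resorbing cells.

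Mice within a group varied widely, which limits every comparison here. Library totals lay between 13086373 and 16528394 counts, and levels are given in CPM, counts scaled to a common library total. A gene with a count of 0 may still have had up to 3 counts, which in these libraries is 0.163 to 0.237 CPM, a limit that covers counting error only. In edgeR's estimate the typical gene had an SD between mice of 0.433 times its mean (the biological coefficient of variation). Of the 9 libraries, T1D mouse 1 and Lira mouse 3 stood apart, with 20.7% and 19.9% of all 13960 tested genes at their highest level in those libraries. All 12 listed markers of skeletal muscle were detected in these bones and their summed level was between 90332 and 254055 CPM. Osteoblast and osteocyte markers summed to 112 to 3714 CPM. Muscle RNA was thus a large part of every library, and the levels below are those of the mixed tissue and not of bone alone. T1D mouse 1 had the lowest muscle sum and the highest sums of osteoblast, osteoclast, fibroblast, adipocyte and macrophage markers. In osteoblast and osteocyte markers it reached 3714 CPM, against 112 to 894 CPM in the other 8 mice. The summed neutrophil markers were between 10.8 CPM in NGT mouse 2 and 5233 CPM in Lira mouse 3.

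The sequences upstream of 4 members are shown because these members define the main patterns of the data, *Saa3* and *Il6* with most of their counts in a single mouse and *Il1b* and *Il1rn* with nearly the same order of levels over the mice. Each is the 250 bases before a start site in RefSeq (GRCm38.p6), 5′ to 3′ on the gene's strand. The deposited values were made on mm9, so these coordinates belong to the reference sequence and not to the counts. Capitals mark matches to any of 5 motifs, searched on both strands except the last: the NF-κB consensus, C/EBP (TTNNGCAA), STAT (TTCNNNGAA), AP-1 (TGANTCA) and the TATA box (TATAAA, gene strand only).
*Saa3*, chr7:46715677-46715926, minus strand: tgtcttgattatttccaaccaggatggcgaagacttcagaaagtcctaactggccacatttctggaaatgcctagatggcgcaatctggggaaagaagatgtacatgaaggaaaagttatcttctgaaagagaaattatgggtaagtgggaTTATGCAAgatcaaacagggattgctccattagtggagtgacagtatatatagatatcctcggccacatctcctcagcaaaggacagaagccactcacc
*Il6*, chr5:30012864-30013113, plus strand: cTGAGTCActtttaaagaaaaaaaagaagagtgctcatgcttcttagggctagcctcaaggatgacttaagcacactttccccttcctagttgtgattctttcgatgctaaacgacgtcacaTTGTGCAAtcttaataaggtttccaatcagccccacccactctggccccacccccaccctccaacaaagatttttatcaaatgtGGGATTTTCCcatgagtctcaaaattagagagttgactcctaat
*Il1b*, chr2:129371140-129371389, minus strand: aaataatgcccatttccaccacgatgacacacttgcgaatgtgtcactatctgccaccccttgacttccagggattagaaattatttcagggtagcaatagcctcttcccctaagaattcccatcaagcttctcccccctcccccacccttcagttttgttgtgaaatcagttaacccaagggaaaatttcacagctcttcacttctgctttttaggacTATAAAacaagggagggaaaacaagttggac
*Il1rn* (start site 1), chr2:24336610-24336859, plus strand: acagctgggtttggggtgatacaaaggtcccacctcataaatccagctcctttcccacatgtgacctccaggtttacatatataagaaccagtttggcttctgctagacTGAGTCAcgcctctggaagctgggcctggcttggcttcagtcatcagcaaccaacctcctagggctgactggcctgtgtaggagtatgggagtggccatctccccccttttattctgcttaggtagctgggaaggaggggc
Upstream of *Il6* the NF-κB consensus lay at positions -44 to -35 counted from the start, a C/EBP match at -128 to -121 and an AP-1 match at -249 to -243. *Saa3* had a C/EBP match at -99 to -92. *Il1b* had only a TATA box, at -31 to -26, and *Il1rn* only an AP-1 match, at -141 to -135. None of these matches overlapped another. Of 32851 promoters of the same length, 7.25% held the NF-κB consensus, 9.56% the C/EBP letters, 7.02% the STAT letters, 6.75% the AP-1 letters and 7.59% the TATA box. Entries were found for 9 of the 10 members, 12 start sites in all, and *Osm* was not among them. None of the 12 held the STAT letters, and those of *Il6ra* and *Il6st* held none of the 5 motifs. A match is a run of letters and says nothing on binding in these bones.

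Levels of different genes can be set side by side only per transcript length, as in the deposited FPKM values. The signal chain *Il6st* was by far the most abundant member, with a mean of 48.3 FPKM over the 9 mice. The receptors *Il6ra* and *Il1r1* followed with 4.42 and 3.23 FPKM. Among the ligands and the antagonist the means were 1.79 FPKM for *Il1b*, 1.00 for *Il1rn*, 0.539 for *Osm*, 0.433 for *Il1a*, 0.216 for *Il6* and 0.109 for *Lif*. The ranges over mice of all neighbors from *Il6ra* to *Lif* in this order overlapped, while *Il6st*, at 40.3 to 66.2 FPKM, lay above all of these genes in every mouse. *Saa3* had a mean of 10.3 FPKM with a median of 0.14, because 1 mouse held nearly all of it, and in that mouse it was above *Il6st*, at 91.6 FPKM against 41.2.

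**Figure D1:**
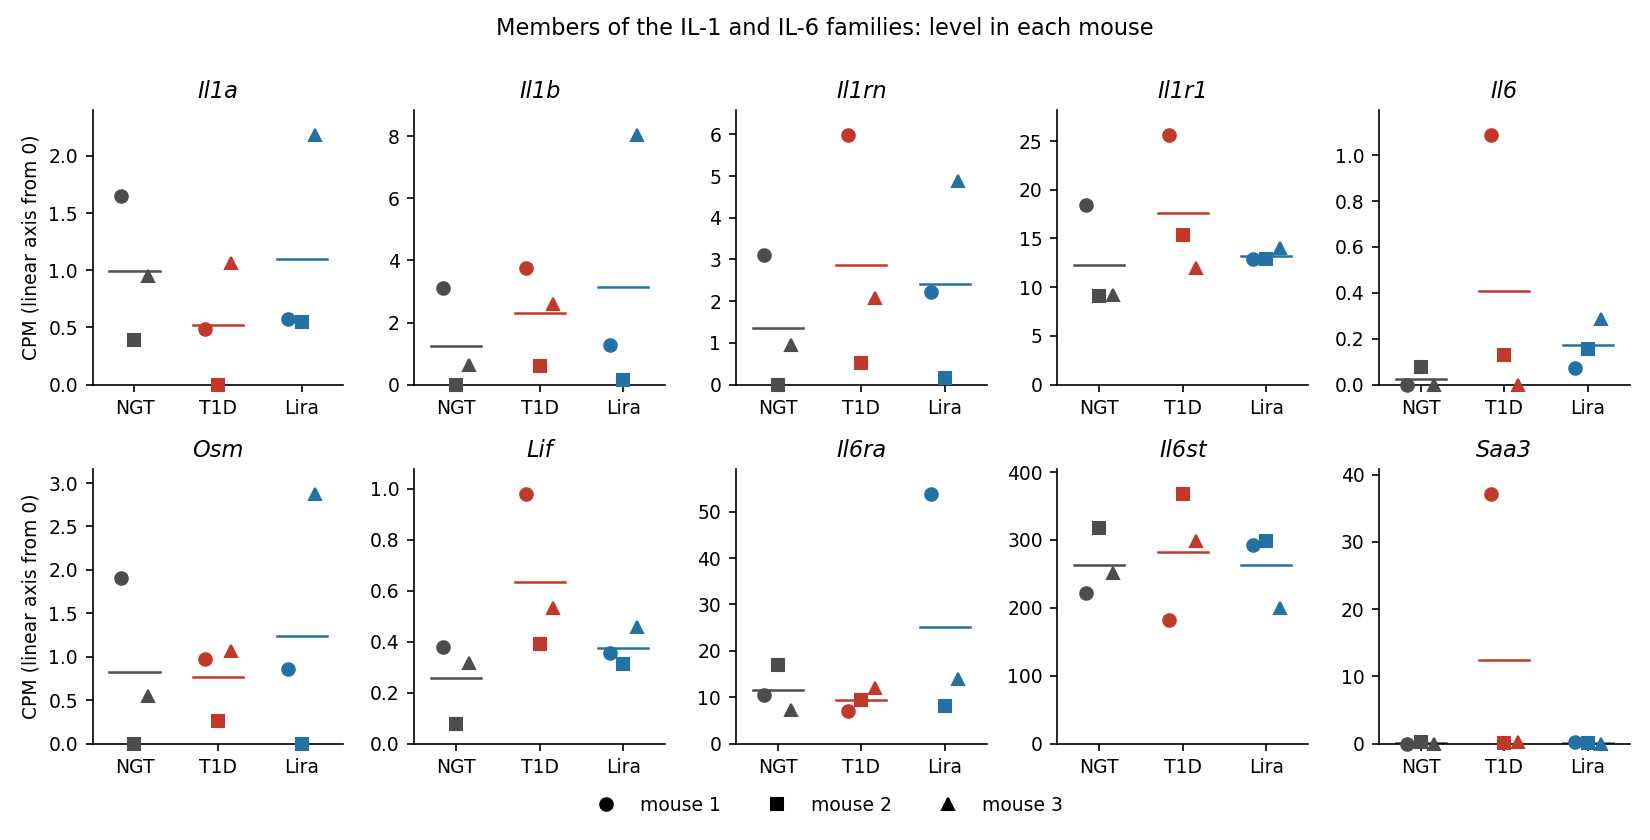
Level of the 10 members in each mouse, in CPM on linear axes from 0 that differ between panels, with NGT, T1D and Lira mice side by side, the mouse number as the symbol and the group mean as the line. *Saa3* reached 37.1 CPM in T1D mouse 1 and at most 0.232 CPM elsewhere, while *Il6st* stayed between 183 and 367 CPM in all 9 mice.

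The main comparisons asked how the untreated diabetic bone differed from the normal bone, T1D against NGT, and how the liraglutide-treated bone differed from the untreated diabetic bone, Lira against T1D. Both used the same 3 T1D mice and are therefore not independent. Of the 10 members, 7 reached 10 counts in at least 3 libraries and were tested, while *Il6*, *Lif* and *Saa3* did not and are given by their levels. Called genes had to pass a fold change of 2 and, in edgeR's quasi-likelihood test, a p-value under 0.05 after Benjamini-Hochberg adjustment. No member was called in T1D against NGT, where 0% of all tested genes were called, and none in Lira against T1D, where 0% were called as well. The adjusted p-values of the 7 members were between 0.977 and 0.997 in T1D against NGT and between 0.978 and 0.990 in Lira against T1D. At an unadjusted p-value under 0.05, 0 of the 7 members passed in either comparison. Among all tested genes this was reached by 2.36% higher and 1.60% lower in T1D, and by 1.55% higher and 1.78% lower in Lira mice. In other fits 2 of the 7 members passed this unadjusted threshold. *Il1r1* did so in T1D against NGT without NGT mouse 1, and in a fit of only these 2 groups with the mouse number as a block, added after the data were seen, in which 1952 of the 13960 tested genes passed. *Il6ra* did so in Lira against T1D in DESeq2 and without Lira mouse 2 or 3. Since these are bulk samples, fewer cells of a type and less RNA per cell cannot be told apart in any of the levels below.

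*Il1a* encodes IL-1α, a ligand that cells can release when damaged. Its levels were 1.65, 0.387 and 0.950 CPM in NGT mice 1 to 3, 0.489, 0 and 1.07 CPM in T1D mice, and 0.571, 0.545 and 2.18 CPM in Lira mice. The 3 groups overlapped, with Lira mouse 3 and NGT mouse 1 highest and no count in T1D mouse 2. The log2 fold change was -0.94 (SE 1.09) in T1D against NGT, with an unadjusted p of 0.409 and an adjusted p of 0.981. For Lira against T1D it was 1.09 (SE 1.08), with an unadjusted p of 0.341 and an adjusted p of 0.978. The T1D value was -0.36 without NGT mouse 1, -0.39 without T1D mouse 2 and -1.95 without T1D mouse 3. The Lira value was 0.11 without Lira mouse 3, 0.53 without T1D mouse 2 and 2.10 without T1D mouse 3.

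*Il1b* encodes IL-1β, the ligand that myeloid cells make as a precursor. NGT mice 1 to 3 had 3.11, 0 and 0.633 CPM, T1D mice 3.75, 0.589 and 2.60 CPM, and Lira mice 1.28, 0.156 and 8.04 CPM. Lira mouse 3 was highest, 2.14 times T1D mouse 1, and mouse 2 was the lowest of its group in all 3 groups, which overlapped. The log2 fold change of *Il1b* was 0.87 (SE 1.47) in T1D against NGT and 0.45 (SE 1.44) in Lira against T1D, with unadjusted p-values of 0.568 and 0.759. The T1D value was 2.85, 0.30 and 0.56 with NGT mice 1, 2 and 3 left out in turn, and 0.33 without T1D mouse 1. Without Lira mouse 3, the Lira value was -1.67, in the other direction, and without any other Lira or T1D mouse it was between 0.010 and 1.01.

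*Il1rn* encodes the IL-1 receptor antagonist. It had 3.11, 0 and 0.950 CPM in NGT mice, 5.98, 0.524 and 2.07 CPM in T1D mice and 2.21, 0.156 and 4.88 CPM in Lira mice. T1D mouse 1 and Lira mouse 3 were highest, the groups overlapped, and mouse 2 was again the lowest of each group. The log2 fold change of *Il1rn* was 1.06 (SE 1.41) in T1D against NGT and -0.24 (SE 1.38) in Lira against T1D, with unadjusted p-values of 0.471 and 0.868. Without T1D mouse 1 these became -0.078 and 0.91, each with the opposite sign, but other mice moved them as much. The T1D value was 2.58 without NGT mouse 1 and 0.49 without NGT mouse 2, and the Lira value was -1.26 with Lira mouse 3 left out and 0.31 with Lira mouse 2 left out.

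The balance of antagonist to agonist was taken as the ratio of *Il1rn* to the sum of *Il1a* and *Il1b* in FPKM, which does not depend on library scaling. It was 0.417 and 0.427 in NGT mice 1 and 3. In NGT mouse 2 it was 0, with *Il1rn* listed at 0 against 0.12 FPKM for the summed agonists. Its log2 could not be formed there, so that mouse was left out of the test. In T1D mice it was 0.816, 0.513 and 0.349, and in Lira mice 0.755, 0.194 and 0.293. In FPKM the antagonist was below the summed agonists in all 8 mice with a log2 ratio, and in NGT mouse 2 as well. In CPM, which is not scaled for transcript length, it was above them in T1D mouse 1 and Lira mouse 1, with log2 ratios of 0.50 and 0.25. The ratio of Lira mouse 2 rests on 2 counts each of *Il1rn* and *Il1b*, below the limit of 3 counts, and on 7 counts of *Il1a*. On the log2 scale T1D mice differed from NGT mice by 0.32 (two-sided exact permutation p = 0.6, 3 against 2 mice, where 0.1 is the smallest p possible). Lira mice differed from T1D mice by -0.59 (exact permutation p = 0.4, 3 against 3 mice, smallest possible p 0.1). The SD was 0.025 over 2 NGT mice, 0.61 over T1D mice and 1.01 over Lira mice, and the T1D ratios lay on both sides of those of NGT mice 1 and 3. The T1D difference was 0.0042 without T1D mouse 1 and 0.62 without T1D mouse 3. The Lira difference was -1.14 without Lira mouse 1, -0.16 without Lira mouse 2, -0.27 without T1D mouse 1 and -0.89 without T1D mouse 3.

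*Il1r1* encodes the signaling receptor of IL-1 and was the most evenly measured of the IL-1 genes. It had 18.5, 9.05 and 9.18 CPM in NGT mice, 25.6, 15.3 and 12.0 CPM in T1D mice and 12.8, 12.9 and 14.1 CPM in Lira mice. T1D mouse 1 was highest, NGT mouse 1 next, and the groups overlapped. Its log2 fold change was 0.53 (SE 0.36) in T1D against NGT and -0.41 (SE 0.36) in Lira against T1D, with unadjusted p-values of 0.174 and 0.276. Without T1D mouse 1 these values were 0.16 and -0.04. Without NGT mouse 1 the T1D value was 0.95, with an unadjusted p of 0.0200, and without NGT mouse 2 it was 0.35. The Lira value was -0.63 without T1D mouse 3.

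Mice of the same number in the NGT and T1D groups deviated together across genes and were taken as pairs. No source describes a pairing, so the pairs rest on the same data that they are used on. T1D exceeded NGT in 3 of 3 pairs for *Il1b*, *Il1rn*, *Il1r1* and *Lif*. For *Il1r1* the T1D mouse exceeded its NGT partner by 7.14, 6.27 and 2.82 CPM. In the fit of these 2 groups with the pairs as a block its log2 fold change was 0.54 (SE 0.16). The unadjusted p was 0.0196 and the adjusted p 0.274. The same fit gave 1.47 (SE 0.74, unadjusted p 0.101) for *Il1b* and 1.38 (SE 0.61, unadjusted p 0.0695) for *Il1rn*. In this fit 1952 of the 13960 tested genes had an unadjusted p under 0.05, against 552 in the main comparison. Since the pairs were chosen from these same data, its p-values cannot decide whether any member differed. Of all tested genes, 19.2% were higher in 3 of 3 pairs and 19.0% were lower in all of them. Of the 7 tested members 3 were higher in all pairs and none was lower in all pairs, and *Lif* was not tested.

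**Figure D2:**
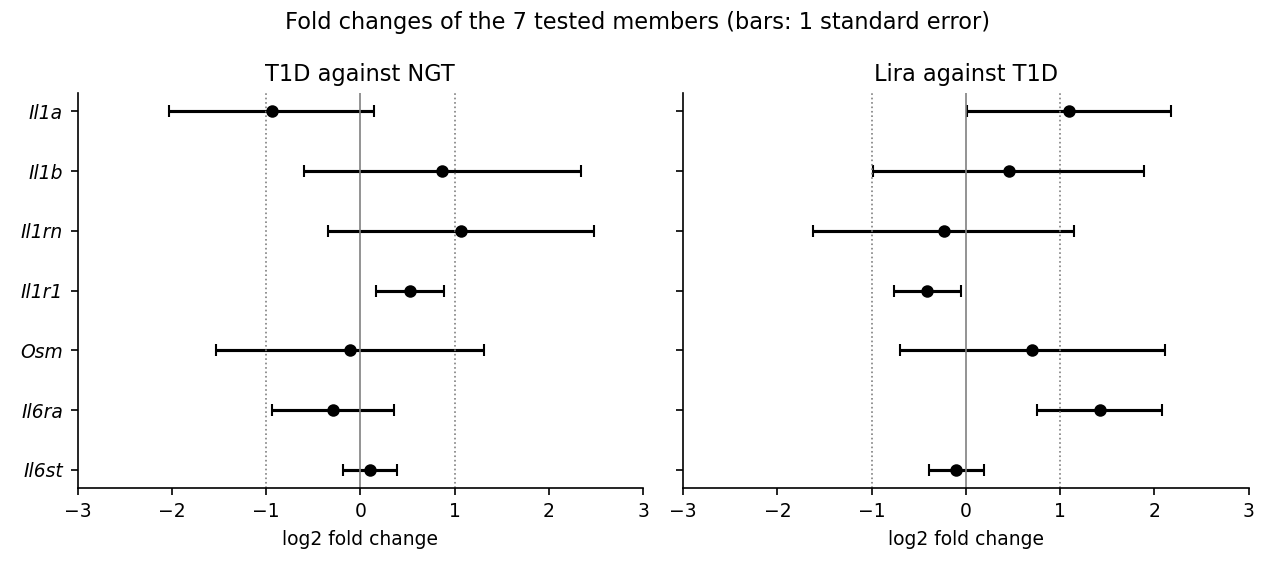
Log2 fold changes of the 7 tested members in T1D against NGT and in Lira against T1D, with 1 standard error as bars and dotted lines at a 2-fold change. *Il1b*, *Il1rn* and *Osm* had standard errors between 1.38 and 1.47, while *Il6st* had 0.29 in both comparisons.

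*Il6* encodes the best known ligand of its family and was barely detected. It had 0, 1 and 0 counts in NGT mice, 20, 2 and 0 counts in T1D mice and 1, 2 and 5 counts in Lira mice. Only T1D mouse 1, at 1.09 CPM, was well above the limit that 3 counts set, and the next mouse, Lira mouse 3, had 0.287 CPM. With no filter on low counts the log2 fold change in T1D against NGT was 3.68 (SE 1.61), with an unadjusted p of 0.0467 and an adjusted p of 0.935. Without T1D mouse 1 it was 1.17 (SE 1.61), and in Lira against T1D it was -1.2 with that mouse and 1.30 without it.

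*Osm* encodes oncostatin M, a product of myeloid cells. It had 1.90, 0 and 0.554 CPM in NGT mice, 0.979, 0.262 and 1.07 CPM in T1D mice and 0.856, 0 and 2.87 CPM in Lira mice. Lira mouse 3 and NGT mouse 1 were highest, 2 mice had no count, and the groups overlapped. The log2 fold change of *Osm* was -0.11 (SE 1.42) in T1D against NGT and 0.70 (SE 1.41) in Lira against T1D, with unadjusted p-values of 0.941 and 0.630. Without NGT mouse 1 the T1D value was 1.46, and without Lira mouse 3 the Lira value was -0.82, both in the other direction. The T1D value was also positive, at 0.27, without T1D mouse 2, and -0.68 without NGT mouse 2.

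*Lif*, which encodes leukemia inhibitory factor, was the only member whose groups did not overlap. It had 6, 1 and 4 counts in NGT mice, 18, 6 and 8 counts in T1D mice and 5, 4 and 8 counts in Lira mice. In CPM the lowest T1D mouse, at 0.393, lay just above the highest NGT mouse, at 0.381, while T1D and Lira mice overlapped. Among all tested genes, the groups did not overlap for 3.52% with T1D higher and for 5.08% with T1D lower. In Lira against T1D, where no member was free of overlap, the shares were 3.74% with Lira higher and 3.40% with Lira lower. With no low-count filter the log2 fold change of *Lif* was 1.26 (SE 0.66) in T1D against NGT, with an unadjusted p of 0.0879, and 0.81 (SE 0.72) without T1D mouse 1.

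*Il6ra* encodes the chain that binds IL-6. It had 10.5, 16.9 and 7.20 CPM in NGT mice, 6.96, 9.43 and 11.9 CPM in T1D mice and 53.7, 8.02 and 13.9 CPM in Lira mice. Lira mouse 1 was 3.17 times the next mouse, NGT mouse 2, while the other Lira mice lay within the range of the NGT mice. The log2 fold change of *Il6ra* was -0.29 (SE 0.65) in T1D against NGT, with an unadjusted p of 0.667, and it was 0.093 without NGT mouse 2 and -0.54 without NGT mouse 3. Lira against T1D gave 1.42 (SE 0.66), with an unadjusted p of 0.0613 and an adjusted p of 0.978, the lowest unadjusted p of any tested member in this fit over all 9 mice. This fold change was 0.22 without Lira mouse 1, 1.84 (unadjusted p 0.0135) with Lira mouse 2 left out and 1.71 (unadjusted p 0.0388) with Lira mouse 3 left out, and DESeq2 gave 1.43 (unadjusted p 0.0296, adjusted p 0.999). Hepatocytes are known to express *Il6ra*, and their 5 markers, led by *Alb*, summed to 6.25 to 20.8 CPM in NGT, 0.133 to 4.78 CPM in T1D and 0.402 to 38.8 CPM in Lira mice, with the highest sum in Lira mouse 1. Their part in the result was not tested.

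*Il6st* encodes gp130, the chain through which most ligands of the IL-6 family signal. It had 222, 317 and 252 CPM in NGT mice, 183, 367 and 299 CPM in T1D mice and 293, 299 and 199 CPM in Lira mice. The groups overlapped throughout, and the coefficient of variation over the 9 mice was 22.3%. T1D mouse 1 and Lira mouse 3, which were highest for 8 of the other 9 members, were the lowest in *Il6st*. The log2 fold change of *Il6st* was 0.10 (SE 0.29) in T1D against NGT and -0.10 (SE 0.29) in Lira against T1D, with unadjusted p-values of 0.733 and 0.736. Both directions turned with single mice left out, to -0.13 and 0.13 without T1D mouse 2, to -0.0075 in T1D against NGT without NGT mouse 1 and to 0.065 in Lira against T1D without Lira mouse 3.

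*Saa3* encodes serum amyloid A3, which is induced in macrophages, adipocytes and other tissue cells during inflammation. It had 0, 3 and 0 counts in NGT mice, 682, 1 and 3 counts in T1D mice and 3, 1 and 0 counts in Lira mice. T1D mouse 1 held 98.4% of all *Saa3* counts, at a level of 37.1 CPM. In the other 8 mice *Saa3* was at or below the limit of 3 counts. With no low-count filter the log2 fold change of *Saa3* was 7.23 (SE 2.36) in T1D against NGT, with an unadjusted p of 0.0130 and an adjusted p of 0.935. Lira against T1D gave -6.93 (SE 2.30), with an unadjusted p of 0.0139 and an adjusted p of 0.938. Without T1D mouse 1 these values were 0.77 and -0.46. The paralogs *Saa1*, *Saa2* and *Saa4*, the first of which is mainly a liver product, had 19.0, 2 and 10.7 counts over all 9 mice together, and reads that fit more than 1 of these genes may have been split between them.

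**Figure D3:**
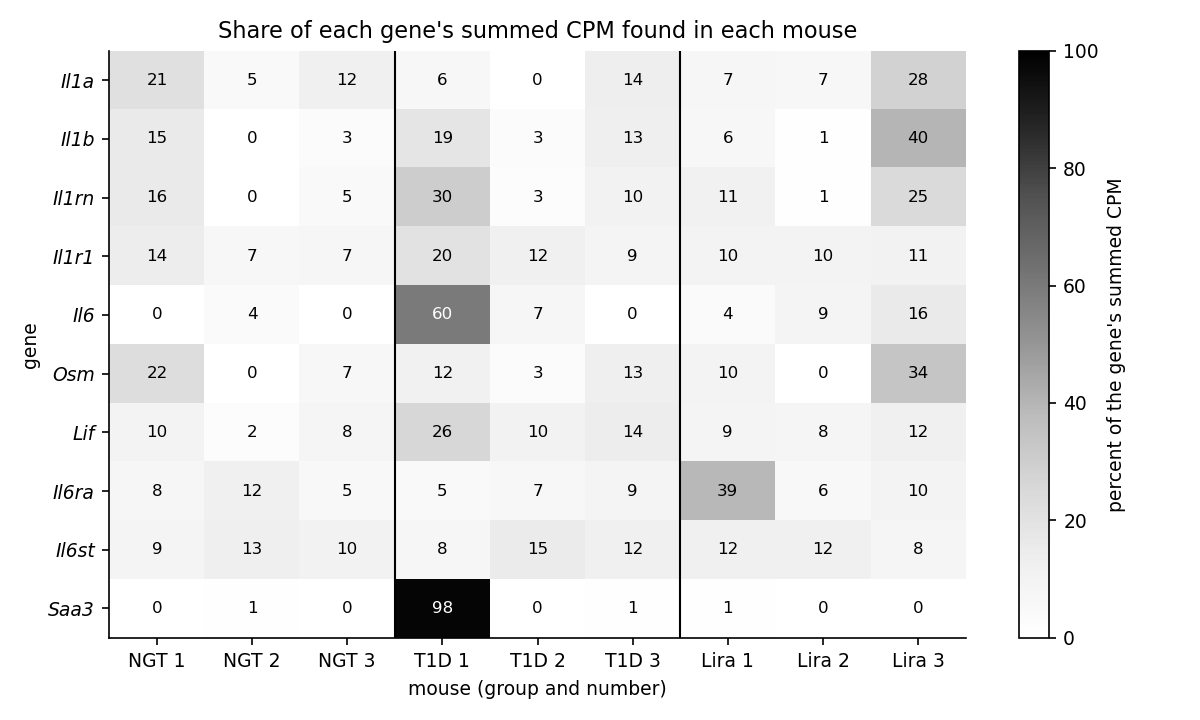
Share of the summed CPM of each member found in each mouse, in percent, with a darker cell for a larger share. T1D mouse 1 held 60% of *Il6* and 98% of *Saa3*, Lira mouse 1 held 39% of *Il6ra*, and Lira mouse 3 held 40% of *Il1b*, while the largest share of *Il6st* in any mouse was 15.1%.

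The members peaked in few mice. T1D mouse 1 was the highest for 2 of the 7 tested members, *Il1rn* and *Il1r1*, against 20.7% of all tested genes. It was also the highest for *Il6*, *Lif* and *Saa3*, which were below the low-count filter with 10 or more counts in that mouse alone. Of all 933 genes below the filter with 10 or more counts in some library, 37.3% had their highest count there. Lira mouse 3 was the highest for 3 of the 7 tested members, *Il1a*, *Il1b* and *Osm*, against 19.9% of tested genes. Lira mouse 1 was the highest for *Il6ra* and T1D mouse 2 for *Il6st*. NGT mouse 2 was at 0 for *Il1b*, *Il1rn* and *Osm*.

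Levels of several members moved together over the 9 mice, which are given as descriptions because the points share the same libraries and tissue mixtures. On log2(CPM + 1), *Il1b* and *Osm* had r = 0.95 and Spearman's rho = 0.95, and *Il1b* and *Il1rn* had r = 0.94 and rho = 0.97. *Il6st* had negative correlations with these genes, r = -0.83 with *Il1rn*, -0.77 with *Il1b* and -0.71 with *Osm*. *Il6* and *Saa3* had r = 0.93 but rho = 0.33, a relation that rests on T1D mouse 1.

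Neutrophils and macrophages are known sources of several members, and their markers varied with some members and not with others. All 12 neutrophil markers were detected, with *Ngp* the most abundant, and their sums ran from 10.8 to 2415 CPM in NGT, from 65.0 to 1506 CPM in T1D and from 122 to 5233 CPM in Lira mice. Other marker sums varied with the members too, and some as closely. Against the neutrophil sum *Il1b* had r = 0.90 and rho = 0.93, *Osm* 0.92 and 0.97, and *Il1a* 0.77 and 0.87 over the 9 mice. *Il6* had 0.20 and -0.05, *Saa3* 0.17 and -0.36, and *Il6st* -0.73 and -0.72. NGT mouse 2, in which *Il1b*, *Il1rn* and *Osm* had no counts, had the lowest sum, and Lira mouse 3 the highest. B cell and T and NK cell markers were also lowest in NGT mouse 2 and highest in Lira mouse 3, with T and NK cell markers at r = 0.98 with *Il1b*. The 13 macrophage and monocyte markers, led by *Lyz2*, summed to 63.0 to 429 CPM in NGT, 145 to 2184 CPM in T1D and 152 to 694 CPM in Lira mice, with the highest sum in T1D mouse 1. Against that sum *Il1rn* had r = 0.92 and rho = 0.92, and *Il1r1* 0.85 and 0.73. *Saa3* had r = 0.72 but rho = 0.02, *Il1a* 0.38 and 0.50, and *Il6st* -0.85 and -0.75. Fibroblast and marrow stroma markers, led by *Dcn*, summed to 3381 CPM in T1D mouse 1 against 670 to 1347 CPM elsewhere, with r = 0.88 and rho = 0.78 for *Il1r1*. Osteoclast markers had r = 0.93 and rho = 0.95 with *Il1b*, and erythroid markers 0.85 and 0.93 with *Il1a*. The osteoclast list, led by *Nfatc1*, holds *Mmp9*, also a neutrophil gene, at 130 of 426 CPM in Lira mouse 3. Skeletal muscle markers had r = -0.88 and rho = -0.93 with *Il1r1*, and r = 0.79 and rho = 0.53 with *Il6st*. No marker of these lists was at 0 in every mouse. The part of these cells in the members' levels was not tested.

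**Figure D4:**
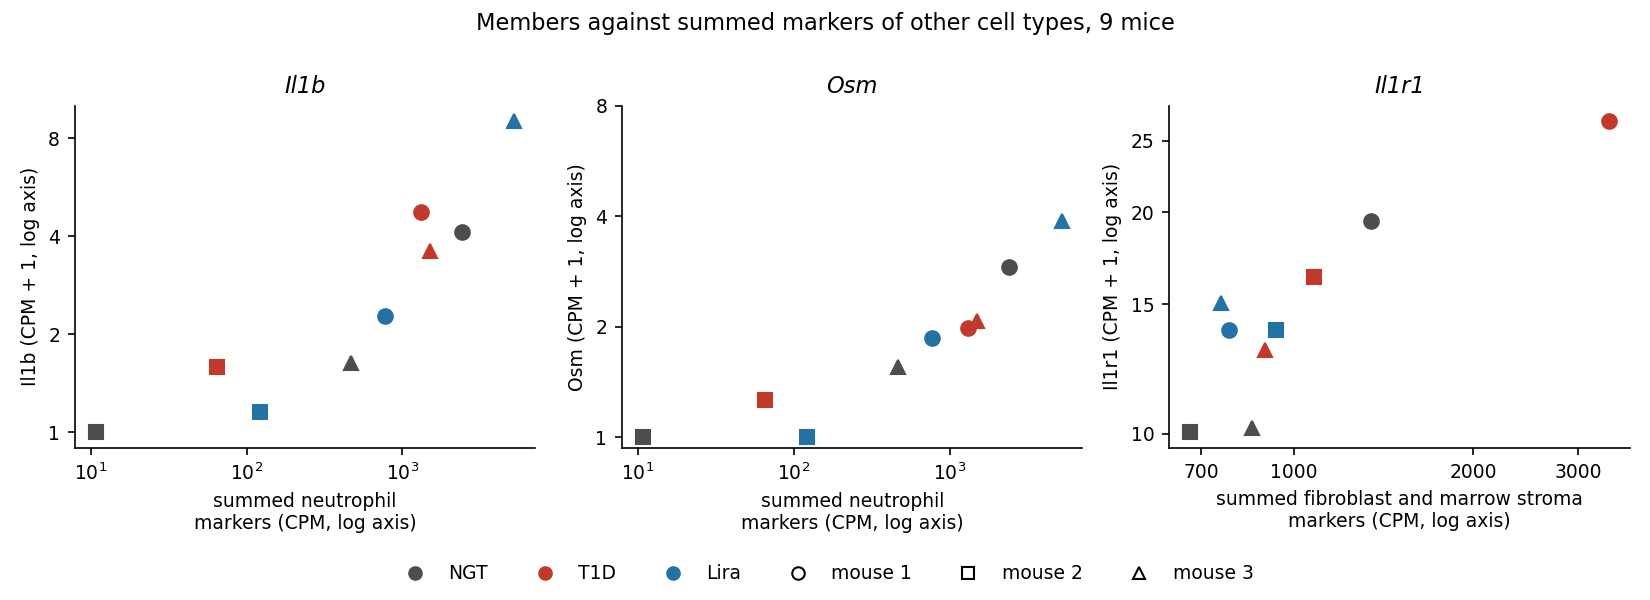
*Il1b* and *Osm* against the summed neutrophil markers, and *Il1r1* against the summed fibroblast and marrow stroma markers, in the 9 mice, with CPM + 1 on log axes vertically and summed CPM on log axes horizontally. NGT mouse 2 (10.8 CPM of neutrophil markers) and Lira mouse 3 (5233 CPM) mark the ends of the neutrophil axis, and T1D mouse 1 stands alone at the right of the stroma axis with 3381 CPM.

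The genes most like each member over the 9 mice were taken from 10410 tested genes with a mean of at least 5 CPM, by Pearson's r on log2(CPM + 1). *Il1b* was followed most closely by *Fbxo33* (r = 0.995), *Klhl6* and *Cd47* (both 0.993), and *Il1rn* by *Glipr1* (0.989) and *Slfn2* (0.985) among others. *Il1r1* was most like *Baiap2* (0.972), *Emp1* (0.971) and *Vat1* (0.963). *Il6ra* was most like *Acer2* (0.952), *Zc3h13* (0.944) and *Tcp11l2* (0.943), all highest in Lira mouse 1, with *Acer2* at 31.0 CPM there and at most 9.74 CPM elsewhere. *Il6st* was most like *Pomt2* (0.968), *Atp6v0e2* (0.959) and *Ddx59* (0.959). *Saa3* was most like *Irgm2* (0.986) and *Iigp1* (0.983), interferon-inducible GTPases, and *Ctsa* (0.981), with Spearman's rho of 0.22, 0.03 and 0.19, so that likeness here means a peak in T1D mouse 1. *Iigp1* had 443 CPM in that mouse and at most 15.3 CPM elsewhere.

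Around the members, 6 lists of related genes were counted in the same fit, which has no block for pairs, and no gene of any list was called in either comparison. Among all tested genes, T1D lay above NGT without overlap for 3.52%, and Lira below T1D for 3.40%. Single genes named below were mostly picked for a low p-value or a high level, and a low p-value goes with separated groups. Of 11 tested genes of the wider IL-1 family, 2 were higher and 0 lower in T1D than NGT mice at an unadjusted p under 0.05, and the median log2 fold change was 0.16, against 0.02 over all tested genes. With T1D mouse 1 left out the median was -0.05, against -0.0092 over all tested genes. The count of 2 became 0 without T1D mouse 1 and also without any 1 of the 3 NGT mice, and 1 in DESeq2. *Il18*, a ligand of this family, had 0.762, 0.309 and 0.475 CPM in NGT and 5.0, 0.786 and 1.07 CPM in T1D mice, without overlap. Its log2 fold change was 2.13 (SE 0.89), with an unadjusted p of 0.0412, and 0.82 without T1D mouse 1. *Il18bp*, the soluble decoy of IL-18, had 26.0 CPM in T1D mouse 1 and between 1.39 and 4.36 CPM in the other mice, and its log2 fold change of 2.32 (SE 0.92, unadjusted p 0.0338) became 0.23 without that mouse. *Il33*, an alarmin of stromal and endothelial cells, did not depend on that mouse. It had 4.95, 3.79 and 4.20 CPM in NGT, 6.14, 6.42 and 5.27 CPM in T1D and 3.85, 3.66 and 2.07 CPM in Lira mice. T1D mice were above both other groups in *Il33* without overlap, an order not counted over all tested genes. In Lira against T1D its log2 fold change was -0.90 (SE 0.31), with an unadjusted p of 0.0174, and -0.87 without T1D mouse 1, while in T1D against NGT it was 0.46 (SE 0.30), with an unadjusted p of 0.164. Of the 11 genes, 0 were higher and 1 was lower in Lira than T1D mice at an unadjusted p under 0.05, with a median of 0.20 against 0.04 over all tested genes, or 0.48 against 0.07 without T1D mouse 1. The IL-33 receptor *Il1rl1* and the IL-18 receptor chain *Il18rap* had log2 fold changes of 0.80 (SE 0.73) and -0.07 (SE 1.5) in T1D against NGT.

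The machinery that matures and transmits IL-1 held 19 tested genes, of which 0 had an unadjusted p under 0.05 in either comparison, with median log2 fold changes of 0.11 and 0.01, or -0.03 and 0.29 without T1D mouse 1. The count in T1D against NGT was 3 without T1D mouse 3, 1 without NGT mouse 1 and 1 in DESeq2, and in Lira against T1D it was 2 without T1D mouse 3. Its lowest p-values in T1D against NGT belonged to the proteases *Casp1*, which cleaves the IL-1β precursor, and *Casp4*. *Casp1* had 22.7 CPM in T1D mouse 1 and between 0.70 and 6.83 CPM in the others, with a log2 fold change of 1.97 (SE 1.06, unadjusted p 0.0974) that was 0.24 without that mouse. *Casp4* had 16.1 CPM there and 0.86 to 4.31 CPM in the others, with 1.65 (SE 0.90, unadjusted p 0.102) and 0.13. The adaptor genes *Tab1*, *Tab2* and *Tollip* and the kinase gene *Map3k7* had log2 fold changes between -0.37 and -0.11 in T1D against NGT and between 0.01 and 0.39 in Lira against T1D, with SEs between 0.15 and 0.30.

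The wider IL-6 family held 12 tested genes, with 0 higher and 0 lower in T1D than NGT mice at an unadjusted p under 0.05 and a median log2 fold change of 0.26, against 0.02 over all tested genes. The median was -0.07 without T1D mouse 1, where 1 gene was higher, *Cntf*, at 2.56 (SE 0.91, unadjusted p 0.0232). For Lira against T1D, 0 were higher and 1 was lower, with a median of -0.15, or 0.08 without T1D mouse 1, against 0.04 and 0.07 over all tested genes. The lower gene was *Cntf* without that mouse, at -2.57 (SE 0.90, unadjusted p 0.0226). Over single mice left out and DESeq2, the counts lay between 0 and 1 in T1D against NGT and between 0 and 2 in Lira against T1D. With all mice the lower gene was *Il11*, a ligand that signals through gp130. It had 0.652, 0.393 and 1.2 CPM in T1D mice and 0.214, 0.389 and 0.172 CPM in Lira mice, with no overlap by a margin of only 0.393 against 0.389 CPM, and its log2 fold change was -1.52 (SE 0.65, unadjusted p 0.0442). *Cntf*, ciliary neurotrophic factor, had 15.6 CPM in T1D mouse 2 and between 0.475 and 3.48 CPM in all other mice. Its receptor gene *Cntfr* had log2 fold changes of -0.77 (SE 0.38) in T1D against NGT and 0.79 (SE 0.38) in Lira against T1D. The receptors *Lifr* and *Il11ra1*, the most abundant genes of the list, lay between -0.21 and 0.18 in both comparisons.

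Downstream of gp130, 12 tested signaling genes had a median log2 fold change of 0.17 in T1D against NGT, with 1 higher and 0 lower at an unadjusted p under 0.05. This median was -0.13 without T1D mouse 1, with 4 of the 12 positive. The count of 1 lay between 1 and 3 over single mice left out and DESeq2. The higher gene was *Cish*, a feedback inhibitor induced by STAT5. It had 2.41, 2.01 and 1.27 CPM in NGT, 4.19, 4.32 and 10.9 CPM in T1D and 10.9, 4.52 and 5.74 CPM in Lira mice. All STZ-injected mice were above all NGT mice in *Cish*, an order not counted over all tested genes. Its log2 fold change of 1.76 (SE 0.52, unadjusted p 0.00832) in T1D against NGT was 1.99 without T1D mouse 1, and in Lira against T1D it was 0.13 (SE 0.49). *Socs3*, the feedback inhibitor induced by STAT3, had 22.5 CPM in T1D mouse 1 and between 1.58 and 6.16 CPM in the others, and its value of 1.59 (SE 0.82, unadjusted p 0.0845) became 0.20 without that mouse. In Lira against T1D the list had 1 higher and 0 lower, with a median of -0.0033, or 0.17 without T1D mouse 1, and the higher gene was the phosphatase gene *Ptpn11*, at 0.46 (SE 0.19, unadjusted p 0.0436). With T1D mouse 1 left out *Ptpn11* had 0.37 (unadjusted p 0.120), and the gene that passed was *Stat3*, at 0.37 (SE 0.14, unadjusted p 0.0320). This count lay between 0 and 2 over single mice left out and DESeq2. The kinase gene *Jak1* had -0.13 (SE 0.21) and 0.14 (SE 0.21).

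Of 27 acute-phase and STAT3-induced genes in the table, 17 were tested. In T1D against NGT 16 of the 17 had a positive log2 fold change, as had 52.1% of all tested genes, with a median of 0.61 against 0.02 over all tested genes, and 2 were higher and 0 lower at an unadjusted p under 0.05. Without T1D mouse 1, the positive ones were 12 of 17, the median was 0.09 and none passed, while 5 passed without NGT mouse 1, 4 without T1D mouse 3 and 4 in DESeq2. *Timp1*, an inhibitor of matrix metalloproteinases, had 2.16, 0.464 and 1.03 CPM in NGT, 44.5, 5.57 and 3.8 CPM in T1D and 1.64, 0.545 and 4.71 CPM in Lira mice. All T1D mice were above all NGT mice, and the log2 fold change was 3.86 (SE 1.17, unadjusted p 0.010), or 1.93 without T1D mouse 1. *Timp1* in Lira against T1D had -2.95 (SE 1.12, unadjusted p 0.0278), or -1.01 without that mouse. *Junb*, an AP-1 subunit, had 9.77, 5.80 and 4.99 CPM in NGT and 20.9, 10.2 and 13.7 CPM in T1D mice, without overlap, with a log2 fold change of 1.12 (SE 0.38, unadjusted p 0.0175). *Cebpd*, a transcription factor induced in the acute phase, had 33.3, 54.9 and 37.3 CPM in NGT, 70.5, 69.8 and 87.4 CPM in T1D and 248, 78.4 and 77.8 CPM in Lira mice. The STZ-injected mice were all above the NGT mice in *Cebpd*, an order not counted over all tested genes, with an unadjusted p of 0.0886 in T1D against NGT. Lira mouse 1, the mouse with the highest *Il6ra*, was the highest. For Lira against T1D, 1 gene of the list was higher and 1 lower, with a median of -0.24. When T1D mouse 1 was left out, 2 were higher and 0 lower, *Lrg1* and *Cebpb*, with a median of 0.30, and with Lira mouse 1 left out 0 passed. With all mice the higher one was *Lrg1*, a secreted glycoprotein, at 0.71 (SE 0.30, unadjusted p 0.0437). *Lcn2*, a neutrophil granule protein, ranged from 4.52 to 405 CPM over the mice with its highest level in Lira mouse 3, and *Cp*, ceruloplasmin, had 0.80 (SE 0.38) and -0.71 (SE 0.38).

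Genes known to be induced by IL-1 through NF-κB formed the list with the largest median difference among the 6. All 11 tested genes had a positive log2 fold change in T1D against NGT, with a median of 0.88, and 0 of 11 in Lira against T1D, with a median of -0.95. Over all tested genes, 52.1% and 55.3% had a positive value in these comparisons. Both values share the T1D mice, and without T1D mouse 1 the positive genes were 7 of 11 in each comparison, against 48.6% and 58.8% of all tested genes, and the medians 0.03 and 0.09. At an unadjusted p under 0.05, 3 were higher and 0 lower in T1D mice, and 0 were higher and 2 lower in Lira mice, against 2.36% and 1.78% of all tested genes in these directions. Without T1D mouse 1 these counts were 1 and 0 in T1D mice, and 0 and 0 in Lira mice. The count of 3 in T1D against NGT was 1 without NGT mouse 3 and 1 in DESeq2, and the count of 2 in Lira against T1D was 0 without Lira mouse 1 or 3, 4 without T1D mouse 2 and 3 in DESeq2. *Nfkbia*, which encodes the inhibitor IκBα and is itself an NF-κB target, kept its value without that mouse. It had 50.5, 41.6 and 42.2 CPM in NGT, 81.1, 54.7 and 102 CPM in T1D and 50.0, 57.6 and 57.3 CPM in Lira mice, with T1D above NGT without overlap. Its log2 fold change in T1D against NGT was 0.82 (SE 0.22, unadjusted p 0.00539, adjusted p 0.977), or 0.81 without T1D mouse 1. Lira against T1D gave -0.53 (SE 0.22, unadjusted p 0.0425). The collagenase gene *Mmp13* had 22.1, 0 and 11.3 CPM in NGT and 188, 38.7 and 82.8 CPM in T1D mice, without overlap, and its value of 3.21 (SE 1.39, unadjusted p 0.0483) was 2.44 without T1D mouse 1. The stromelysin gene *Mmp3* had 69.1 CPM in T1D mouse 1 and at most 2.65 CPM in the others, and its value of 4.19 (SE 1.54, unadjusted p 0.0245) was -0.02 without that mouse. *Nos2* had 19.8 CPM there and at most 5.14 CPM in the others, and *Mmp9*, an osteoclast and neutrophil gelatinase, had 1.47 (SE 1.29) in T1D against NGT.

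**Figure D5:**
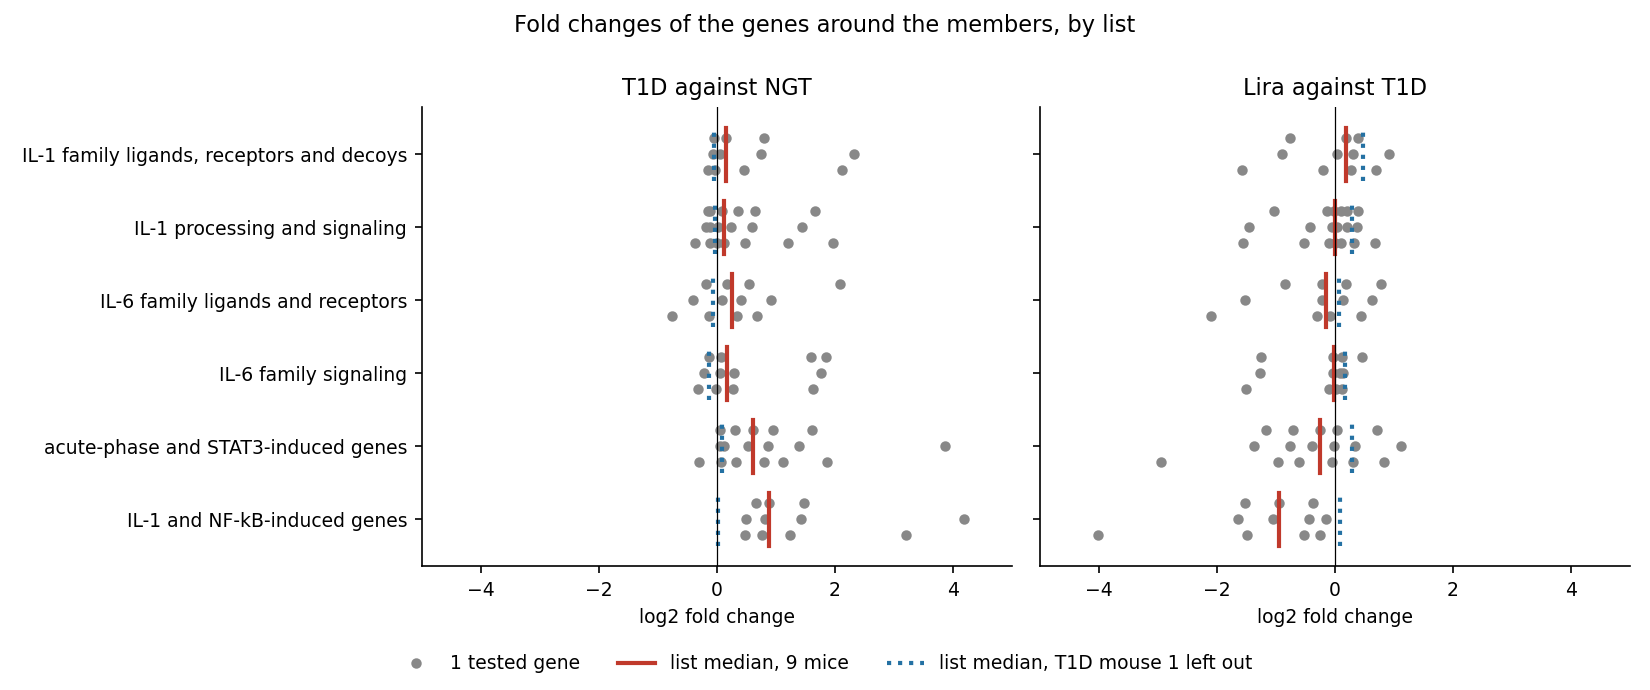
Log2 fold changes of the tested genes of 6 lists in T1D against NGT and in Lira against T1D, with 1 point for each gene, the list median over 9 mice as a solid line and the median without T1D mouse 1 as a dotted line. The median of the IL-1 and NF-κB-induced genes was 0.88 and -0.95 with all mice and 0.03 and 0.09 without T1D mouse 1.

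Of the genes of these lists, 19 were in the table but below the filter on low counts, and 9 of these had their highest count in T1D mouse 1, ties left out, against 20.9% of 4312 genes below the filter with any count. With 10 or more counts in some library it was 8 of 11, against 37.3% of all such genes, and a gene high in 1 library alone cannot pass the filter. The 9 genes include 6 of the 7 untested IL-1 and NF-κB-induced genes, most of them chemokines that draw neutrophils or monocytes. *Ccl2* had 135 of 183 counts in that mouse, *Ccl7* 120 of 162, *Cxcl1* 79 of 92 and *Ptgs2*, the inducible prostaglandin synthase, 21 of 48. The liver products *Fga*, *Fgb* and *Fgg*, the fibrinogen chains, were instead highest in Lira mouse 1, with 28, 14 and 20 counts. These genes were chosen after their values were seen.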

How the data were processed

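The authors sequenced poly(A)-selected RNA of 9 tibias. They state that bones were cleaned of muscle before extraction, while muscle markers summed to 90332 to 254055 CPM in these libraries. They deposited, for 18272 genes, expected counts, which are estimates of reads per gene without normalization, and FPKM values, which the authors scaled for transcript length and library total. Of the counts, 30.2% were not whole numbers, and they were rounded before testing. Per the labels, the genome build was mm9. The aligner, the counting tool, the annotation and the strand setting are not given in the sources used here. Groups came from the sample titles, which covered every column of the table. Replicates are separate mice.

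A gene was kept if 3 or more libraries held 10 counts or more of it, and the 13960 kept were fitted with edgeR 4.0.16 in R 4.3.3 (TMM, glmQLFit, glmQLFTest, 3 group means over all 9 libraries), and p-values were adjusted over all of them. The thresholds, an adjusted p under 0.05 and a fold over 2, are the study's, but the test is not. The paper names a one-way analysis of variance and requires detection in every mouse of a group. It reports many changed genes in both comparisons, where the fit used here called none. CPM is the rounded count divided by the TMM-scaled library total, times 1e6. Standard errors were derived from the F statistic. The fit was tested on simulated counts with known fold changes. The ratio of antagonist to agonists was compared by exact permutation over mice with SciPy 1.17.1. Totals lay between 13086373 and 16528394 counts, and counting error allows no statement below about 0.2 CPM.

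The members and lists were chosen with earlier results of these data known. Named genes are the members, up to 4 tested genes with the lowest unadjusted p and 2 with the highest mean CPM of each of 6 lists, and for members of at least 1 CPM the 3 genes of at least 5 CPM with the most similar log2(CPM + 1). Values of some single genes that this rule names are not reported here. Marker lists of 12 cell types were summed in CPM. *Il36g* and *Il36b* were read under their older symbols *Il1f9* and *Il1f8*.

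Pairing was checked by correlating, across genes, the deviations of log2 CPM (prior count 2) from the group means. Same-numbered NGT and T1D mice correlated at 0.583, 0.647 and 0.283, each over 0.1, and were taken as pairs from these data, since no source describes a pairing. For T1D and Lira mice the values were -0.244, 0.615 and 0.271, and they were not paired. Mice of different numbers reached 0.412 there, for Lira mouse 3 and T1D mouse 1, and at most 0.067 between NGT and T1D mice. Alternatives were DESeq2 1.42.0, scaling by library size, a filter by detection in every mouse of a group or none at all, separate fits of each pair of groups, a block for the replicate number, limma 3.58.1 (an F test on log2(CPM + 1), and log2(FPKM + 0.1)), and the omission of each mouse in turn. A block in the separate fits and an unfiltered fit without T1D mouse 1 were added after seeing the data.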

Additional observations from a re-analysis of the deposited data

How the results depend on the processing

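Of 266 alternative fold changes of members, 243 kept their direction and their side of the thresholds, and no member was called in any of the 19 settings beside the reported one. DESeq2 gave no adjusted p to 6 of the 7 tested members in T1D against NGT, so that these could not be called there. Over all genes 0 were called in either comparison in every setting except DESeq2, which called 1 gene in Lira against T1D, *Gpm6b*, chosen after its value was seen. At an unadjusted p under 0.05, edgeR's test had 552 and 465 genes and DESeq2 697 and 620. With the replicate number as a block, which changed no call, 752 and 507 genes had an unadjusted p under 0.05, and 1952 and 258 when the block was used in fits of only the groups compared. The log2 ratio of antagonist to agonists differed by 0.34 and -0.59 within blocks, by 0.51 and -0.83 in CPM and by 0.33 and -0.35 with 0.1 FPKM added.

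Directions turned for 5 of the 7 tested members, the abundant *Il6st* included, and the cause was not tested. *Osm* in T1D against NGT was 0.34 with the block in either fit, 0.065 on log2(CPM + 1) and 0.40 in FPKM, and in Lira against T1D -0.082 in FPKM. *Il1b* in Lira against T1D was -0.037 with the block, -0.41 with the block and only the compared groups, -0.063 on log2(CPM + 1) and -0.41 in FPKM. *Il1rn* in the unfiltered fit without T1D mouse 1 was -0.073 and 0.90. With each mouse left out in turn, T1D against NGT ranged from -0.68 to 1.46 for *Osm*, from -0.13 to 0.34 for *Il6st*, from -0.54 to 0.093 for *Il6ra* and from -0.078 to 2.58 for *Il1rn*. Lira against T1D ranged from -1.26 to 0.91 for *Il1rn*, from -0.34 to 0.13 for *Il6st*, from -1.67 to 1.01 for *Il1b* and from -0.82 to 1.27 for *Osm*. Of 120 alternative list counts at an unadjusted p under 0.05, 45 moved by over 1.5 times. Depth limits *Il6*, *Lif* and *Saa3*, which had under 10 counts in 8 of the 9 libraries.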
